A study of Mus musculus with 10 samples.

Results

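The genes of the mitochondrial respiratory chain and of ATP synthase were followed in inflamed mouse ear skin after blockade of the urotensin II receptor. They were taken by symbol from a deposited table of 19703 protein-coding genes. The rule took every symbol that begins with Nduf, Uqcr, Cox4 to Cox8 or Atp5, the succinate dehydrogenase genes Sdha, Sdhb, Sdhc and Sdhd, and the cytochrome genes Cyc1 and Cycs. It found 96 genes. Of these, 37 encode subunits of complex I and 8 its assembly factors, 4 encode complex II, 9 complex III with Cyc1, 1 soluble cytochrome c, 20 complex IV and 17 ATP synthase. Ndufa4 and Ndufa4l2, named after complex I, were counted with complex IV, where the Ndufa4 protein is found. All members are nuclear genes.

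The respiratory chain passes electrons from NADH, at complex I, and from succinate, at complex II, through ubiquinone to complex III, and from there through cytochrome c to complex IV, which reduces oxygen. Complexes I, III and IV pump protons across the inner membrane, and ATP synthase uses the returning protons to make ATP. Subunits of one complex are made from many genes and assembled in fixed ratios, and several complex IV subunits have isoforms restricted to muscle, testis or cells adapted to low oxygen.

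The antagonist group held 5 libraries of left ear skin from mice that had received MC903 and were gavaged with GSK1562590, which blocks that receptor, at 5 mg/kg in 100 µl. The vehicle group held 5 libraries from mice that had received MC903 and were gavaged with the vehicle. MC903 (calcipotriol) resembles vitamin D and inflames the skin it is painted on, and both groups received it on the ear for 7 consecutive days and again on day 8, the day of the gavage. Skin was taken on day 13, per the labels. The labels number the antagonist samples 4, 6, 7, 8 and 10 and the vehicle samples 3, 9, 10, 11 and 12, and values per library are given in these orders throughout. The sources used here do not give strain, sex or age, and whether each sample is from a different mouse is not stated, so the p-values speak for the spread of these samples alone. No ear without MC903 was analysed here.

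The libraries held 20183024 to 20606007 expected counts. After a filter on low counts 15174 genes were tested, of which 2530 rose and 2646 fell with the antagonist at an adjusted p under 0.05. The expected tissue was present: the 10 basal keratinocyte markers summed to 11639 to 13768 TPM in antagonist ears and 11005 to 16522 TPM in vehicle ears, and the 10 suprabasal markers to 11218 to 15342 TPM in antagonist ears and 8599 to 16457 TPM in vehicle ears. Levels below are in TPM (the transcript share of a library scaled to a fixed total), a value per transcript length that can be compared between genes. Fold changes are antagonist over vehicle on the log2 scale, from edgeR's quasi-likelihood test with their standard error, and adjusted p-values are Benjamini-Hochberg values over all 15174 genes.

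In both groups the genes of ATP synthase and complex IV stood highest. The median of the members' mean levels was 363 TPM in antagonist ears and 407 TPM in vehicle ears for ATP synthase. For the tested genes of complex IV it was 324 TPM in antagonist ears and 291 TPM in vehicle ears, although their summed level, given below, was lower in antagonist ears. Complex III followed with 168 TPM in antagonist ears and 177 TPM in vehicle ears, then complex I subunits with 122 TPM in antagonist ears and 132 TPM in vehicle ears. For complex II the values were 111 TPM in antagonist ears and 134 TPM in vehicle ears. Complex I assembly factors, proteins that help to build the complex without staying in it, were about an order lower at 13.3 TPM in antagonist ears and 13.7 TPM in vehicle ears. The highest single member was Ndufa4, a subunit of complex IV, at 1095 ± 65.05 TPM in antagonist ears and 1122 ± 93.4 TPM in vehicle ears (SD, n = 5 each, as for all means below). Next came Atp5l, subunit g of ATP synthase, at 827 ± 30.6 TPM in antagonist ears and 902 ± 55.3 TPM in vehicle ears. At the other end, the testis isoform Cox8c was at 0 in all 10 libraries, and the testis isoform Cox7b2 had at most 1 count in a library, so neither was tested and 94 members remained.

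**Figure D1:**
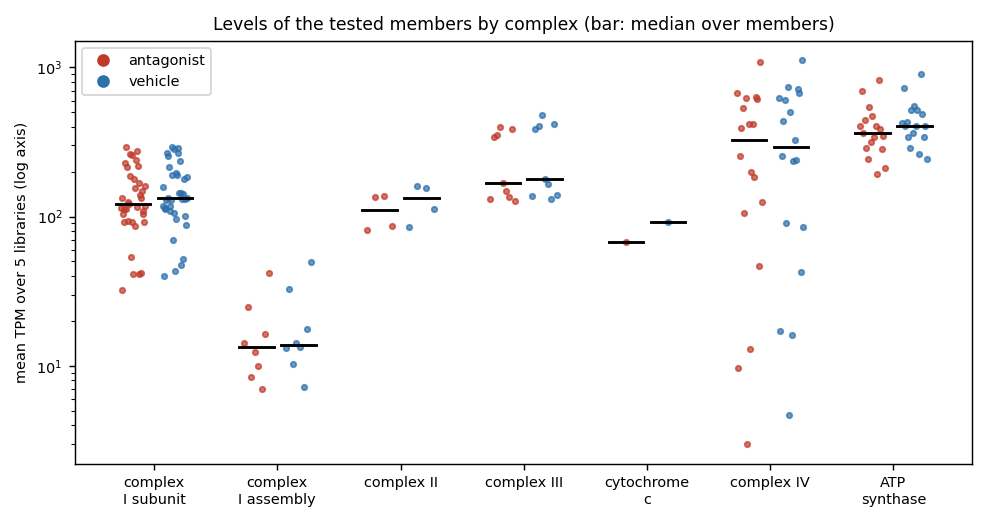
Mean level of each tested member in TPM over 5 libraries (vertical log axis), by complex, with antagonist points left of vehicle points and a bar at the median over members. Medians lay between 111 and 407 TPM for the complexes and at 13.3 and 13.7 TPM for complex I assembly factors.

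With the antagonist, 26 of 94 tested members fell, another 5 rose, and the other 63 missed the threshold. Members that passed in either direction made up 33.0%, against 34.1% of all 15174 genes, so the number of changed genes was near the background. With all libraries in the edgeR fit, the split by direction was not: 27.7% of members fell, against 17.4% of all genes, and 5.32% rose, against 16.7% of all genes. With limma-voom and sample weights the shares that fell were close, 19.1% of members against 18.2% of all genes. The shares that rose were then 5.32% and 17.3%. In the edgeR fit the fold change was negative for 76 of the 94 members, against 50% of all genes. Between 73 and 77 members were negative under every alternative setting run. The median fold change was -0.15 over the members and -0.00018 over all genes. By complex, 27.0% of complex I subunits fell, 25% of its 8 assembly factors and 50% of the 4 complex II genes. For complexes III and IV the share was 11.1% and 16.7%, and for ATP synthase 41.2%, against the same 17.4%. Rises made up 8.11% of complex I subunits and 11.1% of complex IV, against 16.7%. These are counts over genes that share the same libraries, and no test was run on the group as a whole.

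The changes were small. No called member changed 2-fold, a size that 821 genes of the table passed, and the called members that fell had a median fold change of -0.31, against -0.59 over all genes that fell. In TPM, 28 members had every antagonist library below every vehicle library, against 9.9% of all tested genes, and 1, Ndufa6, had every antagonist library above, against 7.34%. Summed over all 96 genes, the level was 21028, 20700.3, 22163, 21663 and 20114 TPM in antagonist ears, against 23551, 23322, 23249, 21977 and 23901 TPM in vehicle ears. The groups overlapped in a single pair, antagonist replicate 7 above vehicle replicate 11, and the means differed by -8.91%. In tissue samples such as these, fewer cells of a type and less RNA per cell cannot be told apart.

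The count of members that fell depended on single libraries. It ranged from 11 to 38 over the 10 fits that each left out a library, and it was 11 without vehicle replicate 3, 13 without vehicle replicate 10, and 14 without vehicle replicate 12, antagonist replicate 6 or antagonist replicate 10. Without vehicle replicate 3 the share that fell, 11.7% of members, was no longer above that of all genes, 12.9%, and likewise without vehicle replicate 10, with 13.8% of members against 14.7% of all genes. The shares were level without vehicle replicate 12, at 14.9% each, and without antagonist replicate 10, at 14.9% of members against 14.8% of all genes. In these fits 75 or 76 of the 94 fold changes were still negative. The count that rose was 3 without vehicle replicate 3, vehicle replicate 11, antagonist replicate 6 or antagonist replicate 8. There were 13 members called in every one of these fits: Ndufa1, Ndufa10, Ndufa11, Ndufs1, Ndufs4, Ndufaf2, Ndufaf5, Sdhd, Cycs, Cox7a2l, Cox7b, Ndufa4l2 and Atp5k.

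**Figure D2:**
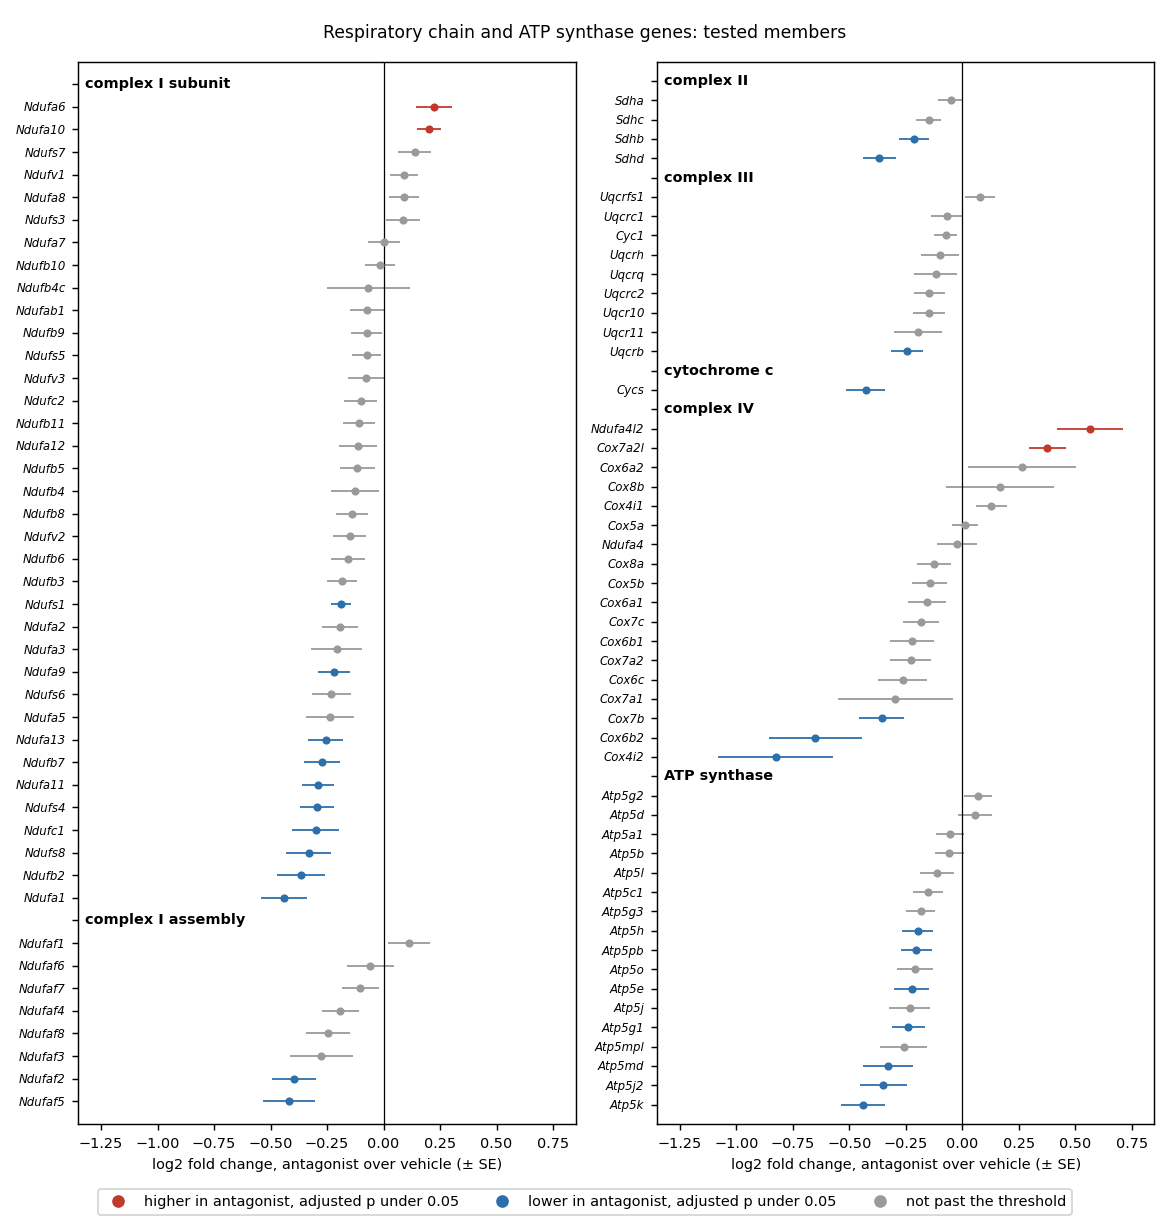
Fitted log2 fold change, antagonist over vehicle, of the tested members by complex, all but 1 of them shown, with bars of 1 standard error, and colours for members that rose, fell or did not pass. Of the 94 fold changes 76 are left of zero, and in ATP synthase 15 of 17 are left of zero.

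Complex I oxidises NADH. Of its 37 subunits 10 fell and 3 rose, 35.1% in either direction against 34.1% of all genes. The median fold change was -0.13, and the summed level was 5195 ± 249 TPM in antagonist ears and 5632 ± 200.1 TPM in vehicle ears.

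In the catalytic core, which carries the flavin, the iron-sulphur clusters and the quinone site, Ndufs1, the largest subunit, fell (log2 fold change -0.19 ± 0.04, adjusted p = 0.00838), and so did Ndufs8, which carries iron-sulphur clusters (log2 fold change -0.33 ± 0.10, adjusted p = 0.0234). Ndufs7, which carries the last of the clusters, and the flavoprotein partner Ndufv2 had fold changes of 0.14 and -0.15 and did not pass. Over the 7 core subunits the median fold change was 0.09, with 4 positive and 3 negative. The core summed to 770 ± 39.1 TPM in antagonist ears and 775 ± 22.6 TPM in vehicle ears. Over the 30 accessory subunits the median was -0.13, with 26 negative. The difference between these parts was not tested.

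Among the accessory subunits, which surround the core, Ndufa6, a matrix-side subunit of the LYR family, had 275, 292, 318, 313 and 269 TPM in antagonist ears, against 236, 259.9, 254, 254 and 267 TPM in vehicle ears, with the groups apart by the gap between 267 and 269 TPM (log2 fold change 0.22 ± 0.08, adjusted p = 0.0483). Ndufa10 rose as well (log2 fold change 0.20 ± 0.05, adjusted p = 0.0151). The largest fall was that of Ndufa1 (chrX:37187588-37191238), a small membrane-anchored subunit that complex I assembly needs. Ndufa1 had 124, 104, 128, 116 and 103 TPM in antagonist ears, against 171, 147, 168, 139.5 and 159.5 TPM in vehicle ears, with no overlap between the groups (log2 fold change -0.44 ± 0.10, adjusted p = 0.00865). Ndufb2, a small subunit of the membrane arm, had 58.9, 53.6, 59.3, 51.00 and 46.3 TPM in antagonist ears, against 73.8, 70.1, 71.2, 58.9 and 75.7 TPM in vehicle ears (log2 fold change -0.37 ± 0.11, adjusted p = 0.0216). Its highest antagonist libraries reached the level of vehicle replicate 11, which was the lowest of the vehicle libraries. Ndufs4, whose loss in mice causes an encephalopathy like Leigh syndrome, had 39.5, 40.6, 43.6, 45.9 and 40.6 TPM in antagonist ears, against 54.9, 53.05, 50.2, 50.3 and 52.3 TPM in vehicle ears, again without overlap (log2 fold change -0.29 ± 0.07, adjusted p = 0.0124). The other accessory subunits that fell were Ndufa9, Ndufa11, Ndufa13, Ndufb7 and Ndufc1, with fold changes from -0.30 to -0.22.

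Several of these calls hung on single libraries. The Ndufs8 call ended without vehicle replicate 3, 10 or 12 or antagonist replicate 6 (adjusted p up to 0.0575). That of Ndufb2 ended without vehicle replicate 3 or 12 (up to 0.0557), and that of Ndufa6 in 7 of the 10 such fits (up to 0.0998), with fold changes of the same sign throughout.

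Complex I assembly factors of the Ndufaf family showed 2 falls and no rise among 8 genes. The median was -0.22, and 7 fold changes were negative. Ndufaf5, a methyltransferase-like protein that modifies the core subunit Ndufs7, had 11.4, 8.82, 10.4, 10.7 and 8.31 TPM in antagonist ears, against 13.3, 15.1, 12.2, 11.98 and 14.2 TPM in vehicle ears (log2 fold change -0.42 ± 0.11, adjusted p = 0.0167), and every antagonist library was below every vehicle library. Ndufaf2, which binds a late assembly intermediate, had 29.9, 22.3, 23.1, 22.1 and 25.8 TPM in antagonist ears, against 32.9, 33.9, 35.04, 27.5 and 34.9 TPM in vehicle ears (log2 fold change -0.40 ± 0.10, adjusted p = 0.0103). Here antagonist replicate 4 exceeded vehicle replicate 11. Ndufaf1, an early assembly factor, had a fold change of 0.11 and did not pass.

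Of 43 tested assembly factors for the chain and ATP synthase that lie outside the symbol rule, 3 rose and 4 fell, and their median was 0.01. By smallest p these were Ecsit, a complex I assembly factor, with 26.8 ± 1.35 TPM in antagonist ears and 23.1 ± 1.29 TPM in vehicle ears (log2 fold change 0.25 ± 0.06, adjusted p = 0.0118), and Cox16, a complex IV assembly factor, with 24.03 ± 3.29 TPM in antagonist ears and 33.7 ± 3.47 TPM in vehicle ears (log2 fold change -0.39 ± 0.10, adjusted p = 0.0118). Named after their values were seen, Uqcc2, which acts in complex III assembly, fell (log2 fold change -0.36 ± 0.09, adjusted p = 0.0118) and Surf1, which acts in complex IV assembly, rose (log2 fold change 0.32 ± 0.11, adjusted p = 0.0395).

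Complex II, succinate dehydrogenase, is the smallest of the complexes and also a step of the TCA cycle. All 4 fold changes were negative, 2 of them past the test, and the summed level was 441 ± 25.5 TPM in antagonist ears and 511 ± 19.5 TPM in vehicle ears, with no overlap of the groups. Sdha, the flavoprotein that oxidises succinate, had 82.6, 81.9, 79.8, 84.2 and 75.8 TPM in antagonist ears, against 80.7, 93.04, 80.1, 87.6 and 82.6 TPM in vehicle ears (log2 fold change -0.05 ± 0.06, adjusted p = 0.492). The ranges overlapped. Sdhb, the iron-sulphur subunit, had 144, 132, 138, 147 and 119 TPM in antagonist ears, against 156, 167, 156, 156 and 162 TPM in vehicle ears (log2 fold change -0.21 ± 0.07, adjusted p = 0.0303). Sdhc, a membrane anchor, had 144, 136, 136, 146 and 129 TPM in antagonist ears, against 155, 167, 146, 154 and 149.9 TPM in vehicle ears (log2 fold change -0.15 ± 0.05, adjusted p = 0.0562). Sdhd (chr9:50596340-50603849), the other anchor, had 93.98, 79.4, 87.7, 90.6 and 81.8 TPM in antagonist ears, against 121, 112, 105, 104 and 121 TPM in vehicle ears (log2 fold change -0.37 ± 0.07, adjusted p = 0.00451). For Sdhb, Sdhc and Sdhd every antagonist library was below every vehicle library. In the authors' deposited table Sdhc had a q-value under 0.05 as well, in the same direction. The Sdhb call ended in 6 of the 10 fits that left out a library, without vehicle replicate 3, 9, 10 or 12 or antagonist replicate 6 or 10 (adjusted p up to 0.0656).

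Complex III hands electrons from ubiquinol to cytochrome c. Of its 9 genes 1 fell and none rose, 8 fold changes were negative with a median of -0.12, and the summed level was 2192 ± 74.4 TPM in antagonist ears and 2439 ± 78.9 TPM in vehicle ears, without overlap. Uqcrb, a small subunit at the quinone-binding side, had 407, 390.4, 419, 382 and 407 TPM in antagonist ears, against 519, 467, 467, 457 and 488 TPM in vehicle ears (log2 fold change -0.25 ± 0.07, adjusted p = 0.0206). All antagonist libraries were below all vehicle libraries, and the call ended without vehicle replicate 3 (adjusted p = 0.0518). Cyc1, the cytochrome that passes electrons on to soluble cytochrome c, had 143, 127, 129, 127 and 129.9 TPM in antagonist ears, against 132, 138, 141, 138 and 141 TPM in vehicle ears (log2 fold change -0.07 ± 0.05, adjusted p = 0.272), and antagonist replicate 4 was the highest library of all. The core proteins Uqcrc1 and Uqcrc2 had fold changes of -0.07 and -0.15, and Uqcrfs1, the Rieske iron-sulphur protein, 0.08, and none of these passed.

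Cycs (chr6:50562563-50566569) encodes somatic cytochrome c, the mobile carrier between complexes III and IV and a trigger of apoptosis when released from mitochondria. Its level was 72.7, 64.4, 69.5, 62.2 and 70.7 TPM in antagonist ears, against 99.8, 90.5, 92.9, 78.6 and 97.6 TPM in vehicle ears. The highest antagonist library stayed below the lowest vehicle library, vehicle replicate 11. The level fell by 25.6% (log2 fold change -0.43 ± 0.09, adjusted p = 0.0047), and the call held in every fit that left out a library (adjusted p up to 0.0133).

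**Figure D3:**
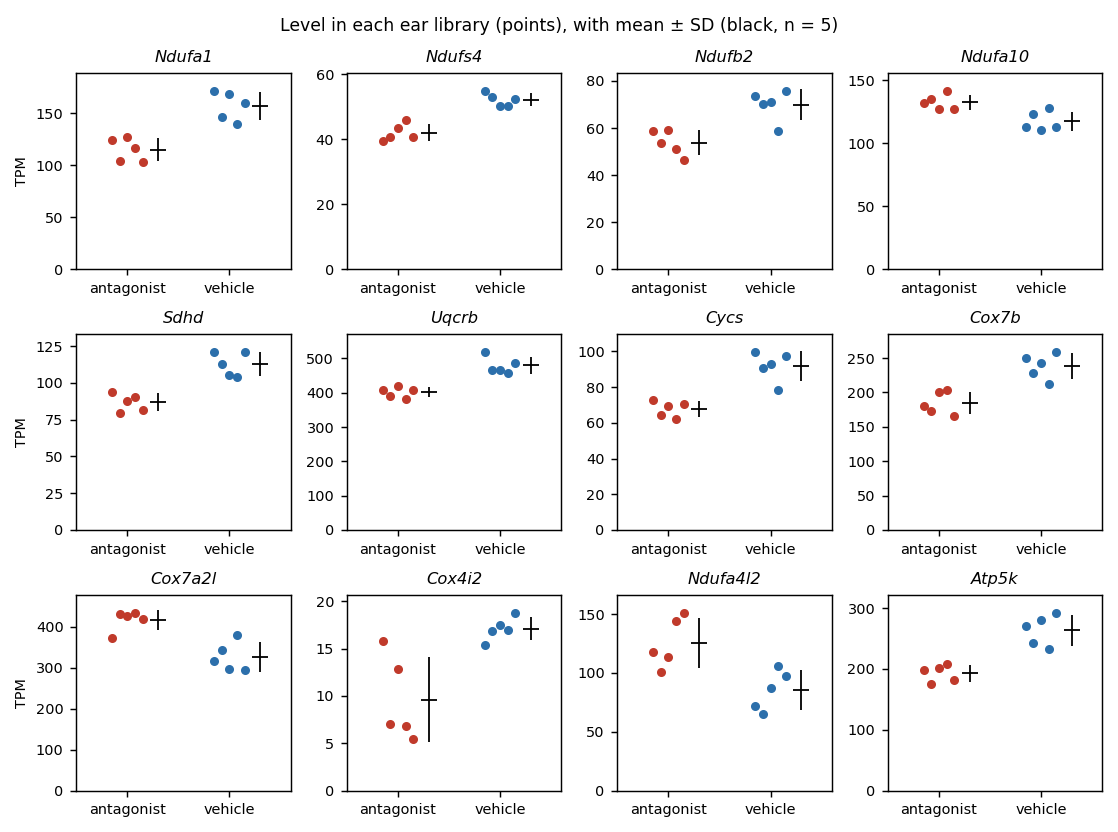
Level in TPM (vertical axis from 0) of selected members in each ear library, antagonist points left of vehicle points, with mean ± SD in black (n = 5 each). Cycs, Sdhd, Ndufa1 and Atp5k show no overlap of the groups, while Ndufb2, Cox7a2l, Ndufa4l2 and Cox4i2 overlap.

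Complex IV reduces oxygen to water. Of its 18 tested genes 2 rose and 3 fell, 12 fold changes were negative with a median of -0.15, and the summed level was 6342 ± 248 TPM in antagonist ears and 6738 ± 199 TPM in vehicle ears, with overlap. Most of this sum comes from the ubiquitous subunits. Of the 12 genes without the tissue isoforms, 1 rose, 1 fell and 9 were negative.

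Cox7a2l (chr17:83501917-83514333), also known as SCAF1, joins complex III to complex IV in respiratory supercomplexes. It rose, with 373, 430.4, 427, 434 and 419 TPM in antagonist ears, against 316, 345, 296, 379 and 294 TPM in vehicle ears (log2 fold change 0.38 ± 0.08, adjusted p = 0.00639). Antagonist replicate 4 overlapped with vehicle replicate 11, and the other 4 antagonist libraries were above all vehicle libraries. The call held in every fit that left out a library (adjusted p up to 0.0172). Cox7b, a small nuclear subunit, fell, with 180.1, 173, 201, 203 and 166 TPM in antagonist ears, against 251, 229, 243, 212 and 259 TPM in vehicle ears and no overlap (log2 fold change -0.36 ± 0.10, adjusted p = 0.0178).

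Ndufa4l2 (chr10:127509274-127517154), a paralogue of Ndufa4 induced by HIF and known to restrain respiration in low oxygen, rose most among the members. It had 118, 101, 113, 144 and 151 TPM in antagonist ears, against 71.8, 64.8, 87.6, 106 and 97.5 TPM in vehicle ears (log2 fold change 0.56 ± 0.15, adjusted p = 0.0135). The lowest antagonist library, replicate 6, lay below vehicle replicate 11. Ndufa4 itself had 1004, 1159, 1082, 1071 and 1157 TPM in antagonist ears, against 1085, 1061, 1132, 1051 and 1279 TPM in vehicle ears (log2 fold change -0.02 ± 0.09, adjusted p = 0.868). The share of Ndufa4l2 in the summed TPM of both was 10.3 ± 1.58% in antagonist ears and 7.08 ± 1.31% in vehicle ears, with overlapping ranges.

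Cox4i2 (chr2:152753916-152765039), the isoform of subunit IV found in lung and in vessel-wall cells and induced by low oxygen, moved the other way and had the largest fall of all members. It had 15.8, 7.06, 12.8, 6.88 and 5.41 TPM in antagonist ears, against 15.4, 16.8, 17.5, 16.98 and 18.8 TPM in vehicle ears (log2 fold change -0.82 ± 0.25, adjusted p = 0.0282). Antagonist replicates 4 and 7 were well above the other 3, and replicate 4 lay within the vehicle range. The ubiquitous isoform Cox4i1 had 675, 672, 692, 693 and 616 TPM in antagonist ears, against 590.4, 699, 603, 640.2 and 569 TPM in vehicle ears (log2 fold change 0.13 ± 0.07, adjusted p = 0.168). As a share of both isoforms Cox4i2 made up 1.40 ± 0.624% in antagonist ears and 2.70 ± 0.323% in vehicle ears, and every antagonist library was below every vehicle library. The Cox4i2 call ended without vehicle replicate 3, 10 or 12 or antagonist replicate 6 or 8 (adjusted p up to 0.0699).

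Hypoxia genes and vessel-wall markers were counted beside this pair. Of 12 hypoxia targets outside the rule 4 rose and 2 fell. These made up 33.3% and 16.7%, against 16.7% and 17.4% of all genes. Over the list 7 fold changes were positive and 5 negative, down to -0.62. The called targets were led by Hif3a, with 1.84 ± 0.268 TPM in antagonist ears and 0.688 ± 0.180 TPM in vehicle ears (log2 fold change 1.44 ± 0.18, adjusted p = 0.000835). Next was Adm, which encodes adrenomedullin, with 20.95 ± 2.30 TPM in antagonist ears and 12.3 ± 2.53 TPM in vehicle ears (log2 fold change 0.79 ± 0.14, adjusted p = 0.00245). The list summed to 629 to 978 TPM in antagonist ears and 594 to 692 TPM in vehicle ears. Of 10 markers of pericytes and smooth muscle 7 fell and none rose, 70% lower against 17.4% of all genes. The smooth muscle actin Acta2 had 40.3 ± 10.1 TPM in antagonist ears and 80.96 ± 8.20 TPM in vehicle ears (log2 fold change -0.95 ± 0.14, adjusted p = 0.00121), and calponin Cnn1 had 1.85 ± 0.752 TPM in antagonist ears and 5.56 ± 1.29 TPM in vehicle ears (log2 fold change -1.59 ± 0.25, adjusted p = 0.00167). These markers summed to 284 to 343 TPM in antagonist ears and 348 to 436 TPM in vehicle ears. Their part in the change of Cox4i2 or Ndufa4l2 was not tested.

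The testis isoform Cox6b2 was low, with 3.60, 2.68, 3.69, 2.62 and 2.24 TPM in antagonist ears, against 3.80, 4.27, 5.76, 4.42 and 4.95 TPM in vehicle ears, and fell (log2 fold change -0.65 ± 0.21, adjusted p = 0.0314), with at most 32 counts in a library. It did not pass in the authors' deposited table or in DESeq2, and its call ended without vehicle replicate 10 or 12 or antagonist replicate 6, 8 or 10 (adjusted p up to 0.0756). Its ubiquitous partner Cox6b1 had 625, 602, 675, 658 and 579 TPM in antagonist ears, against 824, 728, 744, 631 and 766 TPM in vehicle ears (log2 fold change -0.22 ± 0.10, adjusted p = 0.0966). Cox6b1 passed without vehicle replicate 11 (adjusted p = 0.0285, log2 fold change -0.29).

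The muscle isoforms Cox6a2, Cox7a1 and Cox8b, which replace their ubiquitous partners in heart and skeletal muscle, varied widely between libraries of each group. Cox6a2 had 68.6, 107, 117, 146 and 88.7 TPM in antagonist ears, against 64.9, 141, 61.9, 88.6 and 94.9 TPM in vehicle ears (log2 fold change 0.26 ± 0.24, adjusted p = 0.417). Cox8b had 27.8, 40.9, 50.7, 65.1 and 48.6 TPM in antagonist ears, against 31.2, 56.8, 27.8, 46.3 and 50.2 TPM in vehicle ears (log2 fold change 0.17 ± 0.24, adjusted p = 0.619). Cox7a1 had 8.91, 10.3, 12.9, 22.4 and 9.73 TPM in antagonist ears, against 14.1, 21.2, 13.8, 16.3 and 15.03 TPM in vehicle ears (log2 fold change -0.30 ± 0.26, adjusted p = 0.391). For all 3 genes antagonist replicate 8 was the highest antagonist library and vehicle replicate 9 the highest vehicle library. The summed level of 22 skeletal muscle markers was 2081, 2562, 3049.9, 4242 and 2561 TPM in antagonist ears, against 1929, 3977, 1799, 2846 and 2938 TPM in vehicle ears. The same libraries were highest, antagonist replicate 8 and vehicle replicate 9.

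Of the 22 muscle markers 3 rose and 1 fell. These made up 13.6% and 4.55%, against 16.7% and 17.4% of all genes. Over the list 12 fold changes were positive and 10 negative, from -0.83 to 1.14. By smallest p the called markers were led by Atp2a1, the calcium pump of fast muscle, with 268 ± 99.9 TPM in antagonist ears and 125 ± 49.9 TPM in vehicle ears (log2 fold change 1.14 ± 0.29, adjusted p = 0.0121). Next was Tnni1, slow troponin I, with 31.98 ± 11.3 TPM in antagonist ears and 18.4 ± 2.84 TPM in vehicle ears (log2 fold change 0.84 ± 0.22, adjusted p = 0.0134). With the mean level of the muscle markers as a covariate, the fold change of Cox7a1 was -0.49 (adjusted p = 0.0662), that of Cox6a2 was 0.10 and that of Cox8b was 0.0016. Without antagonist replicate 8 Cox7a1 passed the test (log2 fold change -0.59, adjusted p = 0.037). As shares of their isoform pair, Cox6a2 made up 16.3 ± 4.05% in antagonist ears and 12.9 ± 4.15% in vehicle ears, Cox7a1 5.99 ± 2.26% in antagonist ears and 6.41 ± 1.29% in vehicle ears and Cox8b 7.05 ± 1.95% in antagonist ears and 5.89 ± 1.62% in vehicle ears, all with overlap.

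The ubiquitous partners were far more abundant. Cox6a1 had 540.3, 541, 589.9, 505 and 515 TPM in antagonist ears, against 629, 596, 644, 565 and 592 TPM in vehicle ears (log2 fold change -0.16 ± 0.08, adjusted p = 0.172). Cox7a2 had 193, 193, 221, 203 and 185 TPM in antagonist ears, against 240.2, 234, 239, 208 and 256 TPM in vehicle ears (log2 fold change -0.23 ± 0.09, adjusted p = 0.0751), and it passed without vehicle replicate 11 or antagonist replicate 7 (adjusted p down to 0.0276). Cox8a had 617, 589, 681, 610.5 and 568 TPM in antagonist ears, against 673, 696, 684, 647 and 678 TPM in vehicle ears (log2 fold change -0.12 ± 0.08, adjusted p = 0.222), and it passed without antagonist replicate 7 (adjusted p = 0.0426). In all 3 the mean was lower in antagonist ears, with overlapping groups.

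**Figure D4:**
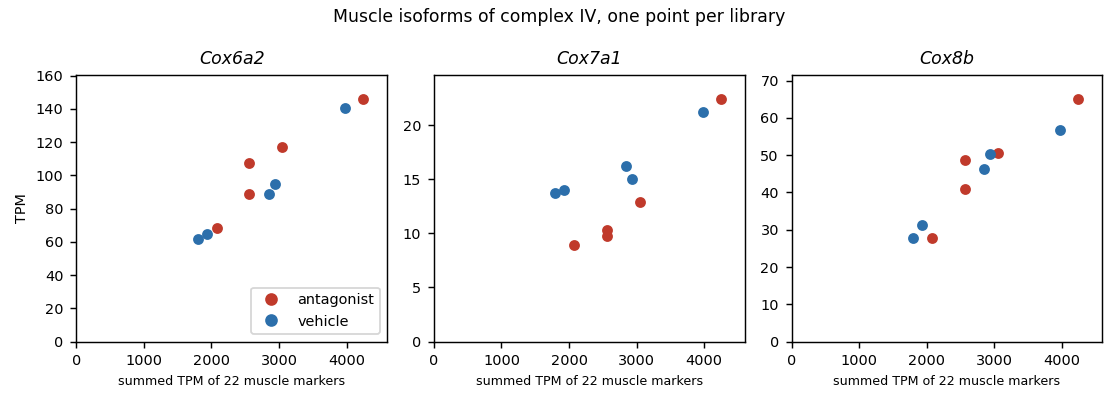
Level in TPM of the muscle isoforms Cox6a2, Cox7a1 and Cox8b (vertical axes) against the summed TPM of 22 skeletal muscle markers (horizontal axes), with 1 point per library, antagonist and vehicle in different colours. The 2 libraries at the right, antagonist replicate 8 and vehicle replicate 9, are also the highest for every isoform.

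ATP synthase makes ATP from the proton flow. Of its 17 genes 7 fell, none rose, and 15 fold changes were negative with a median of -0.20. The summed level was 6761 ± 259 TPM in antagonist ears and 7629 ± 263 TPM in vehicle ears, without overlap. The count of 7 ranged from 1 without vehicle replicate 3 to 10 without antagonist replicate 7 over fits that left out a library.

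By part of the enzyme, the catalytic F1 head of 5 subunits had 1 fall, Atp5e (log2 fold change -0.22 ± 0.08, adjusted p = 0.0429), and a median of -0.06. The main head subunits had close values in both groups: Atp5b, the catalytic beta subunit, averaged 696 ± 25.98 TPM in antagonist ears and 731 ± 23.3 TPM in vehicle ears (log2 fold change -0.06 ± 0.06, adjusted p = 0.508). The peripheral stalk of 4 subunits, which holds the head still, had 2 falls, Atp5h (log2 fold change -0.20 ± 0.07, adjusted p = 0.0423) and Atp5pb (log2 fold change -0.20 ± 0.07, adjusted p = 0.0395), and a median of -0.21. The 5 small membrane subunits, which help the enzyme to form dimers and shape the cristae, had 3 falls and a median of -0.33. These differences between parts of the enzyme were not tested.

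Atp5k (chr5:108433246-108436013 in the deposited table), subunit e, fell most, with 199, 175, 202, 207 and 182 TPM in antagonist ears, against 270.1, 242, 280.4, 233 and 292 TPM in vehicle ears (log2 fold change -0.44 ± 0.10, adjusted p = 0.00673). No antagonist library reached the lowest vehicle library, replicate 11, and the call held in every fit that left out a library (adjusted p up to 0.0196). Atp5j2, subunit f, had 406, 392, 448, 416 and 354 TPM in antagonist ears, against 559, 509, 529, 441 and 555 TPM in vehicle ears (log2 fold change -0.35 ± 0.10, adjusted p = 0.0235), and antagonist replicate 7 overlapped with vehicle replicate 11. Its call ended without vehicle replicate 3, 10 or 12 or antagonist replicate 10 (adjusted p up to 0.0606). Atp5md, also called DAPIT, fell as well (log2 fold change -0.33 ± 0.11, adjusted p = 0.041). Atp5l and Atp5mpl, with -0.11 and -0.26, did not pass.

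The rotating c ring is built from a protein whose mature form is the same whether made from Atp5g1, Atp5g2 or Atp5g3, and these genes were not alike. Atp5g1 had 248, 232, 255, 255 and 231 TPM in antagonist ears, against 306, 294, 295, 270.3 and 285 TPM in vehicle ears (log2 fold change -0.24 ± 0.07, adjusted p = 0.025). Atp5g2 had 523, 559, 548, 548 and 518 TPM in antagonist ears, against 512, 526, 508, 529 and 529 TPM in vehicle ears (log2 fold change 0.07 ± 0.06, adjusted p = 0.417). Atp5g3 had 342, 305, 312, 331 and 297 TPM in antagonist ears, against 344, 356, 384, 352 and 381 TPM in vehicle ears (log2 fold change -0.18 ± 0.07, adjusted p = 0.0503). The groups did not overlap for Atp5g1 and Atp5g3 and overlapped for Atp5g2. As shares of the summed TPM of the 3 genes, Atp5g1 made up 22.2 ± 0.616% in antagonist ears and 24.7 ± 1.12% in vehicle ears, with every antagonist library below. Atp5g2 made up 49.01 ± 1.47% in antagonist ears and 44.4 ± 1.14% in vehicle ears, with every antagonist library above, and Atp5g3 28.8 ± 1.20% in antagonist ears and 30.9 ± 1.14% in vehicle ears, with overlap. Atp5g3 had a q-value under 0.05 in the authors' deposited table and passed without vehicle replicate 9 or 11 (adjusted p down to 0.0394). The Atp5g1 call ended without vehicle replicate 3 or 10 or antagonist replicate 6 or 10 (adjusted p up to 0.0627). These genes, like Ndufb4 and Ndufb4c, resemble each other and have processed pseudogenes, so the authors' counting could have split reads among copies, and no step that marks the strand is named in the protocol.

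The promoters of the members that fell or rose without exception over the fits that left out a library are shown for Cycs, Atp5k, Ndufs4 and Cox7a2l, to set the letters of the motifs below beside the genes the results turn on. Each sequence runs from 250 bases before to 50 bases after the gene's start on its own strand and is taken from RefSeq on build GRCm38.p6. Capitals mark motif letters: the NRF1 core GCATGCGC, the YY1 letters AAGATGGC and the cyclic AMP response element TGACGTCA, each searched on both strands. The windows are chr6:50566520-50566819, chr5:108434350-108434649, chr13:114388045-114388344 and chr17:83514284-83514583, all on the minus strand in RefSeq. RefSeq places Atp5k at chr5:108433246-108434399 on that strand, whereas the deposited table gives a longer interval on the plus strand. The strands differed for 6 of the 72 members with a single RefSeq window and position, and the windows follow RefSeq.
Cycs: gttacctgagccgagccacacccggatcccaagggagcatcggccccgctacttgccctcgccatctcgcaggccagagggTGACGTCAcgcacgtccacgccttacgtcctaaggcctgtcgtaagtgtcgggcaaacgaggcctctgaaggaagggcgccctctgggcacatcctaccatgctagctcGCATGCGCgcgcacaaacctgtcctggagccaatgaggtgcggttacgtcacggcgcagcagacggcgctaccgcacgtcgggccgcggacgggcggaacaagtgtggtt
Atp5k: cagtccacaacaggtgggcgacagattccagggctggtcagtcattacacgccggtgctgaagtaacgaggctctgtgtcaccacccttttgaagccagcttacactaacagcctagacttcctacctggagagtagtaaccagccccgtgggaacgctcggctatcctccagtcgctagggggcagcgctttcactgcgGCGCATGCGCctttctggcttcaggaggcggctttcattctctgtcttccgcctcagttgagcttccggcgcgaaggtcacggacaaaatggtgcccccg
Ndufs4: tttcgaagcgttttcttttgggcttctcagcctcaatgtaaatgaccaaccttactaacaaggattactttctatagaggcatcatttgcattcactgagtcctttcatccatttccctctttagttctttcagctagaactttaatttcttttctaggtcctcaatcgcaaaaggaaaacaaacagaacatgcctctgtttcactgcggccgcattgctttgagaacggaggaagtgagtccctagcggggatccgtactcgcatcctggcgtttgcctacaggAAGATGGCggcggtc
Cox7a2l: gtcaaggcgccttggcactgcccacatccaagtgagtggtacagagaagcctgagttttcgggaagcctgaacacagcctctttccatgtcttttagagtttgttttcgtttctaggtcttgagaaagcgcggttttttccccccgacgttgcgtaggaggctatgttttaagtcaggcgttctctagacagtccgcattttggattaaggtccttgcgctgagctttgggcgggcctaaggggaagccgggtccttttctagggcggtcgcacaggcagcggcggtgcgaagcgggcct

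NRF1 is a factor known to drive many nuclear genes of the respiratory chain, and YY1 is another. A RefSeq window was found for 77 of the 96 members, 76 of them tested. The NRF1 core was in 17.1% of these windows (13 of 76), against 5.18% of the 12009 tested genes with a window. The YY1 letters were in 14.5% (11 of 76), against 4.59%, and since they contain ATG they can overlap a start codon. The letters CCGGAAGT, bound by GABP and other ETS factors, were in 6.58% of members, against 7.83%, and the cyclic AMP response element in 6.58%, against 3.18%. The Cycs window holds the cyclic AMP response element and the NRF1 core, the Atp5k window an NRF1 core that reads on both strands as overlapping matches, and the Ndufs4 window the YY1 letters just inside the transcribed part. The window of Cox7a2l holds none of these letters.

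The motifs were not confined to members that changed. The NRF1 core was in 5 of 23 windows of members that fell, 1 of 3 that rose and 7 of 50 that did not pass. The YY1 letters were in 5 of 23, 0 of 3 and 6 of 50. Ndufa6, which rose, holds the NRF1 core, as do Sdhb, Ndufa11 and Ndufaf5, which fell. A match is a string of letters and not a measured binding site.

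Members differed in length, and so did their fold changes. The median transcript length was 781 nt over the 93 tested members with a known length, against 2861 nt over all tested genes. Members of up to 500 nt had a median fold change of -0.30 (11 genes), those of 500 to 900 nt -0.17 (40 genes), those of 900 to 1600 nt -0.13 (25 genes) and longer ones -0.10 (17 genes). Over all tested genes the medians in the same bins were -0.07, -0.06, -0.03 and 0.0063. Cytosolic ribosomal protein genes, which are as short, had positive medians in every bin, 0.13 (10 genes), 0.22 (38 genes), 0.19 (23 genes) and 0.17 (8 genes). The bin of members up to 500 nt, the longest members and the outer bins of ribosomal protein genes hold fewer than 20 genes each. With each library's trend on transcript length removed, an alternative chosen after the data were seen, 32 of 93 members fell and 7 rose. These made up 34.4% and 7.53% of members, against 18.6% and 18.4% of the 14788 genes in that fit.

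**Figure D5:**
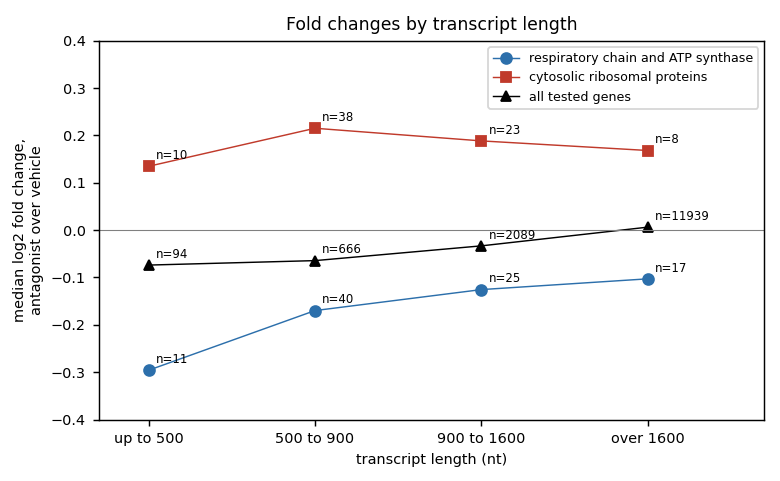
Median log2 fold change, antagonist over vehicle (vertical axis), in 4 bins of transcript length (horizontal axis), for the members, the cytosolic ribosomal protein genes and all tested genes. The members are below zero in every bin, from -0.30 to -0.10, and the ribosomal protein genes above zero, from 0.13 to 0.22.

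Ribosomal protein genes also bear on the TPM scale. Of 80 tested cytosolic ribosomal protein genes 23 rose and none fell, and their median fold change was 0.18. The share that rose was 28.75%, against 16.7% of all genes. Rpl28 had 3453 ± 107 TPM in antagonist ears and 2601 ± 142 TPM in vehicle ears (log2 fold change 0.42 ± 0.07, adjusted p = 0.00217), and Rpl14 had 1558 ± 64.7 TPM in antagonist ears and 1228 ± 75.2 TPM in vehicle ears (log2 fold change 0.36 ± 0.07, adjusted p = 0.00415). They summed to 205650.2 to 227267 TPM in antagonist ears and 184393 to 195649 TPM in vehicle ears. TPM is a share of a fixed total per library, so this sum enters the TPM of every other gene, whereas the fitted fold changes use TMM factors. Fits on log2 TPM called 45 members lower with a pseudocount of 1 and 44 with a pseudocount of 0.1, against 26 on counts, and 5 members higher in each. These fits used limma-trend in place of the edgeR test, so scale and test changed together, and the source of the difference was not tested. In the TPM fits 47.9% and 46.8% of members fell, against 17.5% of all genes in each, and 5.32% rose, against 12.6%.

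Other mitochondrial genes were counted from lists to place the members, beside the 16.7% of all tested genes that rose and the 17.4% that fell. Of 78 mitochondrial ribosomal protein genes 4 rose and 10 fell, with a median of -0.05. Mrps28, of the small subunit, had 36.4 ± 3.89 TPM in antagonist ears and 50.7 ± 6.15 TPM in vehicle ears (log2 fold change -0.47 ± 0.11, adjusted p = 0.00779), and Mrpl18, of the large subunit, had 61.5 ± 3.69 TPM in antagonist ears and 74.96 ± 3.18 TPM in vehicle ears (log2 fold change -0.26 ± 0.07, adjusted p = 0.014). Of 17 regulators of mitochondrial biogenesis 3 rose and none fell, with a median of 0.11. The share that rose, 17.6%, was near that of all genes. Twnk, the mitochondrial DNA helicase, had 11 ± 0.984 TPM in antagonist ears and 7.93 ± 1.26 TPM in vehicle ears (log2 fold change 0.51 ± 0.10, adjusted p = 0.00449), and Polrmt, the mitochondrial RNA polymerase, had 7.82 ± 0.482 TPM in antagonist ears and 6.87 ± 0.519 TPM in vehicle ears (log2 fold change 0.20 ± 0.06, adjusted p = 0.0307). The 13 subunits encoded by mitochondrial DNA were not analysed here.

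Among 16 TCA cycle genes 1 rose and 3 fell, with a median of 0.0011. Fh1, fumarate hydratase, had 50.7 ± 3.19 TPM in antagonist ears and 64.3 ± 4.21 TPM in vehicle ears (log2 fold change -0.33 ± 0.07, adjusted p = 0.00596), and Dld, a subunit shared by several dehydrogenase complexes, had 68.4 ± 3.79 TPM in antagonist ears and 77.4 ± 4.75 TPM in vehicle ears (log2 fold change -0.17 ± 0.05, adjusted p = 0.0318). Of 20 carriers and import proteins 2 rose and 1 fell, with a median of -0.04. Hspa9, the matrix chaperone that pulls proteins in, rose (log2 fold change 0.22 ± 0.06, adjusted p = 0.0178), and Vdac3, an outer membrane channel, fell (log2 fold change -0.20 ± 0.06, adjusted p = 0.0262). Of 21 glycolysis genes 4 rose and 4 fell, with a median of -0.02. Over this list 11 fold changes were negative and 10 positive, from -0.61 to 0.40. The lactate transporters Slc16a3, with 25.4 ± 3.73 TPM in antagonist ears and 38.8 ± 3.23 TPM in vehicle ears (log2 fold change -0.61 ± 0.09, adjusted p = 0.00152), and Slc16a1, with 28.8 ± 3.61 TPM in antagonist ears and 40.6 ± 3.17 TPM in vehicle ears (log2 fold change -0.48 ± 0.07, adjusted p = 0.00143), both fell. The members' median of -0.15 was below that of each of these lists, and the difference was not tested.

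Markers of several cell types of the ear moved with the groups. Of 10 fibroblast markers 9 fell, and they summed to 2430.1 to 3877 TPM in antagonist ears and 5653 to 8065 TPM in vehicle ears. Dpt (log2 fold change -1.48) and Col3a1 (-2.15) had the smallest p. Of 12 leukocyte markers 10 fell, and they summed to 1236 to 2572 TPM in antagonist ears and 3084 to 4161 TPM in vehicle ears, led by Csf3r (-1.92) and Itgax (-1.21). Of 13 tested cartilage markers 9 fell, and the list summed to 349 to 605 TPM in antagonist ears and 561 to 965 TPM in vehicle ears, led by Comp (-1.61) and Matn3 (-3.71). Of 5 tested red blood cell markers 4 fell, led by Hbb-bt (-2.23) and Alas2 (-1.50), with sums of 136 to 1436 TPM in antagonist ears and 996 to 2500.0 TPM in vehicle ears. Not tested for low counts were Matn1 among the cartilage markers and Slc4a1 among those of red blood cells, at no more than 0.08 and 0.14 TPM.

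Among the tested epidermal and hair follicle markers some rose past the threshold and none fell past it. Of 10 basal keratinocyte markers 4 rose, led by Dst (0.77) and Dsp (0.29), and 6 did not pass. The abundant basal keratins Krt5 (-0.34) and Krt14 (-0.13) were among those 6, and the basal sum averaged 13064 TPM in antagonist ears and 14315 TPM in vehicle ears. Of 10 suprabasal markers 3 rose, led by Lce1d (0.49) and Lor (0.65), and 7 did not pass, Krt77 (-1.07) and Krt1 (-0.04) with negative values. Of 7 tested hair follicle markers 4 rose, led by Msx2 (1.11) and Dlx3 (0.65), and 3 did not pass, Krt71 (-0.79) and Lef1 (-0.17) with negative values. The hair follicle list summed to 87.05 to 231 TPM in antagonist ears and 50.3 to 114 TPM in vehicle ears. Krt33a and Krt35, not tested for low counts, were at 0 in 7 of 10 libraries, including all antagonist libraries. In vehicle ears they reached 0.74 and 0.48 TPM. Krt31, Shh and Wnt10b, also not tested, had lower maxima in antagonist ears than in vehicle ears. Of 12 tested adipocyte markers 1 rose, Plin4 (1.24), and none fell. Over this list 6 fold changes were positive and 6 negative, down to -1.93, with Plin1 (-0.64) and Adipoq (-0.48) among the negative ones. The sums were 1032 to 2611 TPM in antagonist ears and 1039.5 to 1639 TPM in vehicle ears, and the highest was that of antagonist replicate 10. The brown fat marker Ucp1 was at most 0.15 TPM. None of 11 sebaceous markers passed. Of 8 endothelial markers 1 rose and 2 fell (Cdh5 -0.24, Tie1 -0.26), with 4 fold changes negative and 4 positive. Of 7 Schwann cell markers 2 rose and 1 fell, Pmp22 (-0.28), with 3 fold changes negative, 4 positive and a median of 0.0083.

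With the mean level of the cartilage or the leukocyte markers as a covariate, none of the 31 called members passed, and neither did any of the 15174 genes. At an unadjusted p under 0.05 the edgeR fits then held 1953 genes, 2 of them members, and 589 genes, 1 of them a member. The fold changes stayed negative for 75 and 77 members. With the cartilage and the leukocyte covariate, that of Cycs was -0.43 and -0.42, that of Ndufa4l2 0.51 and 0.56 and that of Ndufa10 0.17 and 0.20. These were close to the values without a covariate. That of Ndufa1 was -0.31 and -0.17, against -0.44 without a covariate, and that of Sdhd -0.24 and -0.16, against -0.37. That of Cox7a2l was 0.25 and 0.32, against 0.38, and that of Atp5k -0.36 and -0.33, against -0.44. Differences between these genes were not tested. The group accounted for 68.7% of the variance of the cartilage score and 86.9% of that of the leukocyte score, so that the group and these markers cannot be told apart in 10 libraries. The muscle score, of which the group accounted for 4.56%, left 20 members lower and 4 higher. These made up 21.3% and 4.26% of members, against 15.8% and 15.4% of all genes.

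Within the groups the members varied little. Their coefficient of variation had a median of 6.53% in antagonist ears and 6.65% in vehicle ears, and the largest was 46.8% in antagonist ears, that of Cox4i2. They tended to move together by library. Vehicle replicate 11 was the lowest vehicle library in 51 of 94 members, antagonist replicate 10 was the lowest antagonist library in 44, and antagonist replicate 7 the highest in 40. Against the authors' deposited table, in which 32 members had a q-value under 0.05, 30 members were called in the same direction by both. Sdhc and Atp5g3 were called in that table alone and Cox6b2 in the fit here alone.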

How the data were processed

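In all, 10 samples of left ear skin from MC903-treated mice, 5 per group, were profiled by RNA-seq. Per the labels' protocols, mRNA was selected with oligo(dT), copied with random hexamers and sequenced as DNA nanoballs. HISAT is among the tools listed, per the submitters' processing notes. The sources used here name no counting tool, annotation or genome build. Per the file headers, the authors deposited expected counts (estimated read counts that need not be whole), TPM and FPKM for each library, and a comparison with log2 fold changes, p-values and q-values from DESeq2. All 96 members overlapped their RefSeq gene on mouse build GRCm38.p6, as did 19544 of 19645 genes matched by identifier, so positions are the table's own, read on that build. The table's strand was not used. 1 line of the table was empty, and 0 per-library columns were left unmatched.

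Expected counts were rounded, filtered with filterByExpr (minimum count 10, minimum total 15), scaled by TMM and compared in edgeR 4.0.16 (R 4.3.3) with the quasi-likelihood F test on group alone, with Benjamini-Hochberg adjustment over 15174 genes and a threshold of 0.05. The common biological coefficient of variation was 16.3%. The squared difference of any pair of libraries was at least 21.4 times sampling noise, so none was treated as a duplicate. The code was tested on simulated data. Deposited TPM gave the levels and isoform shares, and FPKM an alternative for the shares. Transcript lengths came from GENCODE transcripts and promoters from RefSeq. The motif search covered windows of 250 bases before to 50 bases after the start.

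The members, the 20 gene lists (275 of 290 entries found) and the promoters shown were chosen with earlier results of these data known. Every member may be named, but single values of 1 member and of 1 marker are not reported here. Values per library are given for the 2 largest called rises and falls of each complex whose mean log2 CPM was 1 or more, the isoforms, Cyc1, Cycs and the Sdh genes. Ndufs4 and, in a plot, Ndufa10 were added after their values were seen. Of each list the 2 called genes with the smallest p are named. Alternatives covered other scaling factors, filters, DESeq2 1.42.0, limma 3.58.1 (voom with sample weights, and trend on log2 TPM with pseudocounts of 1 and 0.1), marker scores as covariates, each library left out and, added after the data were seen, removal of a length trend. Proteins were not used here.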

Additional observations from a re-analysis of the deposited data

Results flagged for a closer look

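In each group of 5 libraries, a member was looked at again when its highest or lowest library stood apart from the other 4 by more than 0.71 of the group's range (Dixon's test at the 95% level). Of 186 such groups 11 stood out, and chance alone gives about 1 in 20.

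Antagonist replicate 10 was low for Ndufa2 (101.01 TPM, against 113.93 to 115.79 TPM in the other antagonist libraries), Cox4i1 (615.63 TPM, against 672.31 to 693.43 TPM) and Atp5pb (196.35 TPM, against 211.84 to 216.13 TPM). Antagonist replicate 4 was high for Ndufaf4 (14.65 TPM, against 11.39 to 12.27 TPM) and Cyc1 (142.69 TPM, against 126.96 to 129.92 TPM), and low for Cox7a2l (372.83 TPM, against 418.84 to 434.38 TPM). Antagonist replicate 7 was high for Ndufa3 (271.28 TPM, against 211.23 to 224.81 TPM) and antagonist replicate 6 low for Ndufb6 (81.32 TPM, against 86.59 to 88.34 TPM).

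Among the vehicle libraries, replicate 11 was low for Ndufab1 (114.08 TPM, against 129.37 to 134.64 TPM) and Ndufaf2 (27.48 TPM, against 32.89 to 35.04 TPM), and replicate 9 was high for Ndufs3 (148.06 TPM, against 125.51 to 129.24 TPM).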

How the results depend on the processing

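No paired analysis was possible because the groups share a single replicate number in the labels, 10. The median fold changes of the complexes stayed negative under every alternative. The number of ATP synthase genes called was 11 with library totals, 4 with no filter, 2 with limma-voom, 3 with the muscle covariate and 12 on log2 TPM with either pseudocount. On log2 TPM with pseudocounts of 1 and 0.1, 45 and 44 members fell, 20 and 20 complex I subunits were called, and 10 and 9 complex IV genes. With limma-voom and sample weights 18 members fell, 19.1% of members against 18.2% of all genes. With the cartilage or the leukocyte covariate all counts were 0, over all genes, members and each complex. The median of complex I assembly factors was then -0.11 (cartilage) and -0.092 (leukocyte), that of complex II -0.10 (leukocyte), and the fold change turned to 0.066 for Cox4i2 (cartilage) and 0.035 for Ndufc1 (leukocyte). The causes were not tested. The share of Ndufa4l2 differed by 5.49 points on expected counts, which are not per length.

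Over the 10 fits without a library, 1880 to 2776 genes rose and 1966 to 2865 fell, 3 to 5 members rose and 11 to 38 fell. Called were 5 to 16 complex I subunits, 2 to 4 assembly factors, 1 to 2 genes of complex II, 0 to 1 of complex III, 3 to 9 of complex IV and 1 to 10 of ATP synthase. Depth limits Cox6b2, Cox7b2 and Cox8c, which had few or no counts.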

Other observations

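Members of the same complex or isoform set differed in direction, and which cells of the skin they came from was not tested. In complex IV the isoform Ndufa4l2 and the supercomplex factor Cox7a2l rose (log2 fold changes 0.56 and 0.38) while Cox7b and Cox4i2 fell (-0.36 and -0.82). Between the c-ring genes the share of Atp5g2 was higher by 4.65 points in antagonist ears, and it was higher by 4.16 to 5.16 points when any single library was left out. Among the 17 regulators of mitochondrial biogenesis, Twnk and Polrmt rose (0.51 and 0.20), and Sirt1, a deacetylase named after its value was seen, rose as well (0.22). The other 14 did not pass. Named after their values were seen, these included Tfam (-0.04), Tfb1m (-0.02), Polg (0.16) and Tfb2m (0.17). The share of the list that rose, 17.6%, was near that of all genes, 16.7%.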
